A study of Mus musculus with 8 samples.

Results

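DNA methyltransferases add methyl groups to cytosine, mostly in CpG dinucleotides, and TET dioxygenases oxidise them. The 8 genes described here are the writers Dnmt1, Dnmt3a and Dnmt3b, their cofactors Uhrf1 and Dnmt3l, and the erasers Tet1, Tet2 and Tet3. They were taken by symbol, a rule that uses no value, from a table of 23983 genes, and all 8 were found. The values are FPKM (fragments per kilobase of transcript, as scaled between libraries by the authors' software). They come from total RNA of testis of C57BL/6J mice, the genotype the labels give for all samples. The mice were aged 12, 16 and 24 days (d12, d16, d24) or adult, with 1 library per stage. H3K27Ac samples of the same stages are not analysed here. Day 12 testis holds meiotic cells of the first wave of spermatogenesis, and haploid cells follow later. Because testis pieces hold all these cells, fewer cells of a type and less RNA per cell cannot be told apart. How many animals each library holds is not given in the sources used here.

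DNMT1 copies methylation onto the new DNA strand after replication and is guided there by UHRF1, which binds CpG sites methylated on the old strand alone. DNMT3A and DNMT3B set new methylation, and DNMT3L, which has no catalytic activity of its own, stimulates them. In the male germ line, new methylation is laid down mainly in prospermatogonia before birth, where Dnmt3l is known for its high expression. TET enzymes turn 5-methylcytosine into 5-hydroxymethylcytosine and further products, which base excision repair can replace by cytosine.

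The values of the 8 genes moved in 2 directions along the series. Between d12 and adult testis, Dnmt1, Dnmt3a, Dnmt3b, Tet1, Tet2 and Tet3 were at least 2-fold lower, from 2.12-fold for Dnmt1 to 10.7-fold for Tet3, while Dnmt3l was 13-fold higher. Uhrf1 was 1.84-fold higher as deposited, under the 2-fold limit, and 0.791 times the d12 value with an equal FPKM sum. A gene was called here when its log2(FPKM + 0.1) differed by at least 1, which corresponds to 2-fold. Of all genes averaging 1 FPKM or more, 23.1% were lower from d12 to adult testis as deposited and 35.7% higher. With an equal FPKM sum these shares were 49.9% and 23.2%. Single libraries hold no spread between animals, so no p-value is given and each call describes these libraries only.

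Several of these genes have more than 1 start, and the FPKM value of a gene adds them up. RefSeq curates 3 different starts for Dnmt1 and for Dnmt3a and 4 for Dnmt3l. The sequences below are the 250 bases before a start (RefSeq, GRCm38.p6), read 5′ to 3′ with each CpG in capitals, since CpG is the site these enzymes act on. Shown are 2 starts each of Dnmt3a and Dnmt3l, which moved in opposite directions, and 1 each of Dnmt1 and Uhrf1, the maintenance pair. Windows that overlap an annotated exon were left out of the choice.

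Dnmt3a, the start of the longest transcript, plus strand, chr12:3806730-3806979, with 38 CpG: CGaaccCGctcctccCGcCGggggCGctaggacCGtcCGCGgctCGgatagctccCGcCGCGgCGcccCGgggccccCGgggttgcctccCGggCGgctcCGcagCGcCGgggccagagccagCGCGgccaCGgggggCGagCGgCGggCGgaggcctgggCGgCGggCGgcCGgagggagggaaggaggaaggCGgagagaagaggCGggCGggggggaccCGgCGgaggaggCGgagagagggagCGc
Dnmt3a, the downstream start, plus strand, chr12:3891494-3891743, with 15 CpG: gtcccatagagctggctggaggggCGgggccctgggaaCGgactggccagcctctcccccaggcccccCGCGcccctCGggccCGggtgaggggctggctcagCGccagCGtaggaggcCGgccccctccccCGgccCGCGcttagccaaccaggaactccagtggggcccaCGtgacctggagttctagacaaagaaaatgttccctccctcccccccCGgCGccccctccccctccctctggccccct
Dnmt3l, plus strand, chr10:78049592-78049841, with 4 CpG: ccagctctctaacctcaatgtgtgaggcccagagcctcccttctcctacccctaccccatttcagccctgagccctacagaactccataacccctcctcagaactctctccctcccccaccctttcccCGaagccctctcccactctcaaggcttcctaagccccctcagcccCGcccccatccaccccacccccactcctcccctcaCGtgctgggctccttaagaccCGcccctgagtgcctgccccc
Dnmt3l, the last start, plus strand, chr10:78055085-78055334, with 3 CpG: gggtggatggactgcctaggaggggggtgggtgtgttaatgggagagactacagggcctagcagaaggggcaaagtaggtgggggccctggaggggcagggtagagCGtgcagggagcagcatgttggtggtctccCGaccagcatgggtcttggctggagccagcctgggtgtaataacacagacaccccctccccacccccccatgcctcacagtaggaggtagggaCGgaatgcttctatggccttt
Dnmt1, minus strand, chr9:20952980-20953229, with 7 CpG: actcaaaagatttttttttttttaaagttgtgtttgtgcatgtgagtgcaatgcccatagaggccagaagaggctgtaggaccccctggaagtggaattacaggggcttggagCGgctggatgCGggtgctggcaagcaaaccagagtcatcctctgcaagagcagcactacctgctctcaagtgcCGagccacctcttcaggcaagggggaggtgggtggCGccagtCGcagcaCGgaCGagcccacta
Uhrf1, plus strand, chr17:56303087-56303336, with 10 CpG: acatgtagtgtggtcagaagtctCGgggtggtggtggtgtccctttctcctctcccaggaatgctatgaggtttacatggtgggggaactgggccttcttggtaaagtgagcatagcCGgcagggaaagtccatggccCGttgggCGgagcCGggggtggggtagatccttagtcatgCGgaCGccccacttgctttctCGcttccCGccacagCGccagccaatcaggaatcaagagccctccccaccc

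Counted over 250 bases before to 50 bases after a start, the median of 32851 promoter windows is 7 CpG (quartiles 3 and 20). Of the 4 curated starts of Dnmt3l, 3 have a window here. These 3 windows lie under this median, with 6, 4 and 3 CpG in the order of their starts. The Tet2 window, with 57 CpG, holds more than 99.8% of all windows do. Dnmt3a has 46, 47 and 18 CpG, Dnmt3b 30 and Tet1 17. Tet3 has 22 in the window of 1 of its 2 curated starts, and the other start has no window here. Dnmt1 has 2, 12 and 33 CpG and Uhrf1 12 and 33, so that 1 Dnmt1 window lies under the median and both Uhrf1 windows lie above it. The RNA values do not tell the starts apart. Of the letters searched on both strands, the E2F-type TTTGGCGC occurs in 1 Dnmt1 window and in 0.514% of all windows, and CCAAT occurs in windows of Dnmt1, Uhrf1 and Tet3 and in 37.4% of all windows. GGGCGG occurs in at least 1 window of each of the 8 genes and in 35.7% of all windows. The E2F-type TTTCCCGC (1.07% of all windows) and TGACGTCA (1.79%) are in no window of the 8 genes. None of these 5 motifs contains another, though neighbouring matches can share letters, and a match describes the letters only.

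The depth follows from the FPKM values themselves, since for genes with 1 curated transcript they are nearly all close to whole multiples of the value of 1 fragment. The 4 libraries hold about 8906270 to 23681200 fragments on genes. Intervals below are exact 95% intervals on the fragments behind a value, with the shortest curated transcript assumed, which makes them widest. They cover counting error only. The FPKM values sum to 283580 on d12 and to 659202 in the adult. Results for the 8 genes and shares of all genes are therefore also given after rescaling. The libraries were set to an equal sum, to an equal upper quartile or by the median ratio over genes. Marker sums and partner genes are given as deposited only. The median ratio leaves the deposited values nearly as they are, with factors of 0.984 to 0.993, and is hardly an alternative to them. Over the 13901 genes averaging 1 FPKM or more, which include all 8 genes, the median log2 change from d12 to adult testis was 0.20 as deposited, 0.21 with the median ratio, -0.45 with the upper quartile and -1 with an equal sum. From d16 to d24 these medians were 0.13, 0.14, -0.15 and -0.48, and from d24 to adult testis -0.02, -0.02, -0.25 and -0.49.

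**Figure D1:**
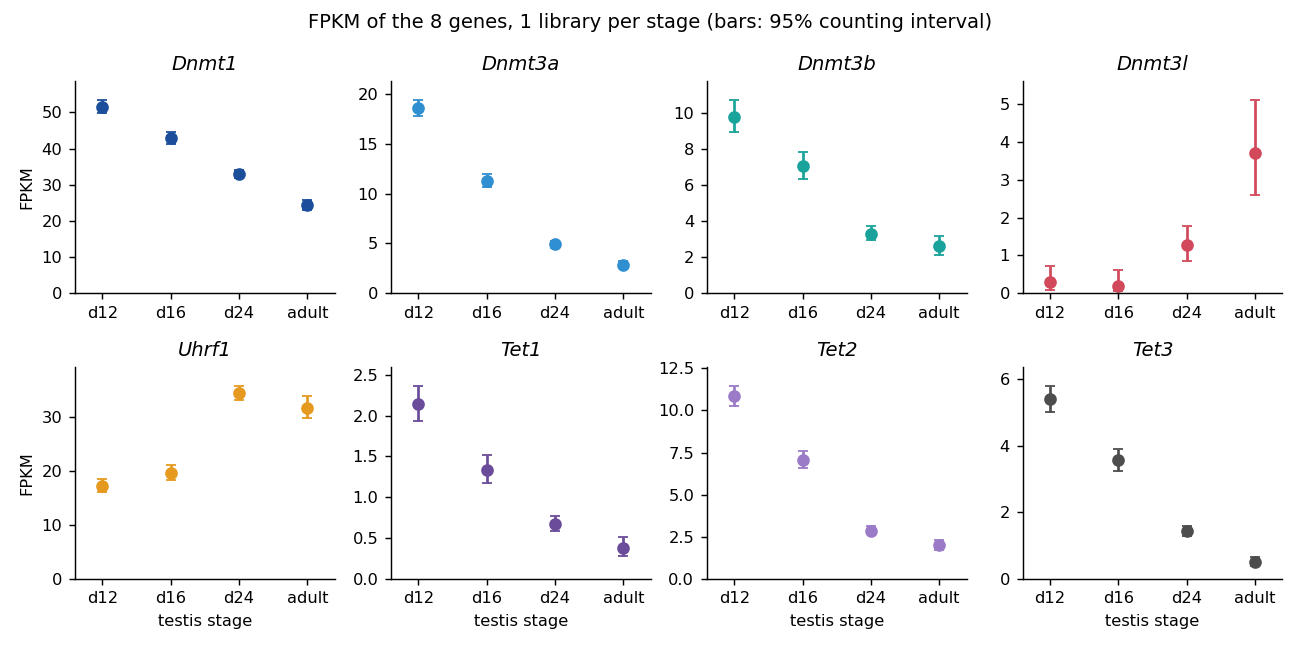
FPKM (vertical axes, each from 0) of the 8 genes on d12, d16, d24 and in the adult, with 1 library per stage as a point and its 95% counting interval as a bar. Dnmt1, Dnmt3a, Dnmt3b and the 3 TET genes are lowest in the adult, Dnmt3l is highest there, and Uhrf1 is highest on d24.

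Dnmt1, on the minus strand of chromosome 9 (20907206 to 20959888, GRCm38), was the highest of the 8 genes on d12 with 51.6 FPKM (3392 fragments, 49.9 to 53.4). It lay at 42.9 FPKM on d16 (41.3 to 44.5), 32.9 on d24 (31.9 to 34.0) and 24.3 in the adult (22.9 to 25.7). Each stage was below the one before by more than counting error. The d12 value was 2.12 times the adult value (1.99 to 2.27), which is the smallest difference among the 6 genes that were lower. Among all genes tested, Dnmt1 moved from above 93.1% of them on d12 to above 68.9% in the adult.

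Uhrf1, on the plus strand of chromosome 17 (56303337 to 56323486), had 17.3 FPKM on d12 (735 fragments, 16 to 18.6) and 19.7 on d16 (18.4 to 21). On d24 it had 34.4 FPKM (2572 fragments, 33.1 to 35.8), and in the adult 31.8 (29.8 to 33.8). The d24 and adult values lie above both earlier values, and the intervals of the early and late stages do not overlap. From d16 to d24 Uhrf1 was 1.75-fold higher (1.62 to 1.89), and this difference was 1.14-fold with an equal sum, 1.44-fold with the upper quartile and 1.77-fold with the median ratio. From d12 to adult testis its direction depends on the scaling: the adult value was 1.84 times the d12 value as deposited (1.67 to 2.03), 1.16 times with the upper quartile and 0.791 times with an equal sum. Uhrf1 is the single gene of the 8 for which a scaling turned a direction.

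The ratio of Uhrf1 to Dnmt1 within a library does not depend on the scaling. It was 0.335 on d12 (0.308 to 0.362), 0.458 on d16 (0.424 to 0.496), 1.05 on d24 (0.994 to 1.1) and 1.31 in the adult (1.20 to 1.43). Dnmt1 was thus the higher of the pair on d12 and d16, the genes could not be separated on d24, and Uhrf1 was the higher in the adult. Of the 50-base stretches of the longest Uhrf1 transcript, 18.9% also occur in transcripts of other genes, mostly of Gm5648, a processed pseudogene on the X chromosome (121334988 to 121336574). The authors kept 1 alignment per read pair, and neither Gm5648 nor Gm15953, the other gene that shares stretches, has a row in the table used here, so the part of such fragments in the Uhrf1 value was not tested.

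**Figure D2:**
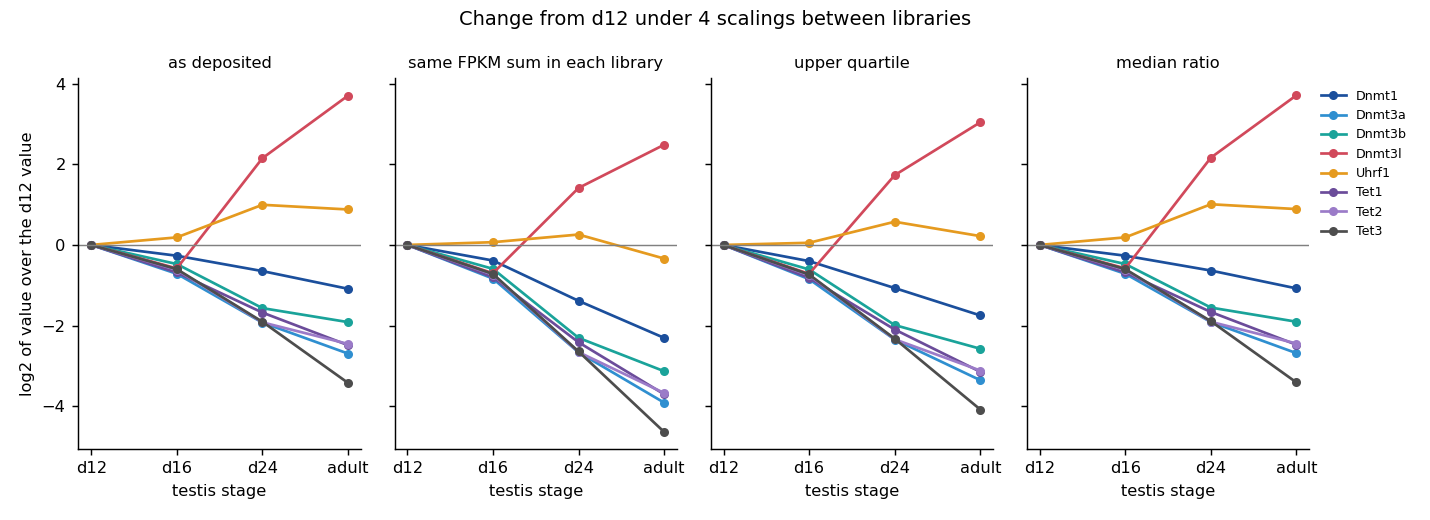
Log2 of each value over the d12 value of the same gene (vertical axis) by stage, in 4 panels for the values as deposited and for 3 other scalings between libraries. Uhrf1 ends above its d12 level in the adult in 3 panels and below it with an equal FPKM sum, while the other 7 genes keep their direction.

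Dnmt3a, on the plus strand of chromosome 12 (3801559 to 3914443), had 18.6 FPKM on d12 (2071 fragments, 17.8 to 19.4). It had 11.3 FPKM on d16 (10.7 to 11.9), 4.89 on d24 (4.58 to 5.21) and 2.87 in the adult (228 fragments, 2.51 to 3.27). No 2 stages have overlapping intervals. The d12 value was 6.46 times the adult value (5.64 to 7.45), and 2.04% of all genes tested showed a lower log2 change over that span. Dnmt3aos, an antisense RNA gene inside the Dnmt3a locus, had 0.865 FPKM on d12 and 0.0810 in the adult, where 1 fragment lies behind the value.

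Dnmt3b, on the plus strand of chromosome 2 (153649411 to 153687730), had 9.81 FPKM on d12 (486 fragments, 8.95 to 10.7). Its value was 7.07 FPKM on d16 (6.35 to 7.85), 3.31 on d24 (2.94 to 3.72) and 2.61 in the adult (92 fragments, 2.1 to 3.20). The intervals of d24 and adult testis overlap, and those of the earlier stages do not. The d12 value was 3.77 times the adult value (3.00 to 4.75). Dnmt3a was 1.89 times Dnmt3b on d12 (1.71 to 2.09) and 1.1 times in the adult (0.861 to 1.42), where they could not be separated. Of the 50-base stretches of Dnmt3b, 11.5% also occur in its neighbour Dnmt3c (chromosome 2, 153696652 to 153729907), a rodent methyltransferase of the male germ line. Dnmt3c has no row in the table used here under this name or as Gm14490, and the part of its fragments in the Dnmt3b value was not tested.

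Dnmt3l, on the plus strand of chromosome 10 (78042287 to 78063622), showed the opposite course at a low level. It had 0.286 FPKM on d12, from 4 fragments with the shortest transcript or 7 with the longest (0.0777 to 0.731), and 0.191 FPKM on d16, from 3 or 4 fragments (0.0442 to 0.626). On d24 it had 1.27 FPKM (31 fragments, 0.856 to 1.79), and in the adult 3.72 FPKM (37 fragments, 2.61 to 5.11). The d12 and d16 values lie near the limit of 3 fragments, which is 0.214 FPKM at both stages, and cannot be separated, while the d24 and adult intervals overlap with none of the others. Dnmt3l was 6.64-fold higher on d24 than on d16 (1.83 to 30.1) and 2.93-fold higher in the adult than on d24 (1.78 to 4.90). Both intervals reach below 2-fold, and the fold from d12 to adult testis, 13, has an interval of 4.67 to 50.2. Aire, which overlaps the first start of Dnmt3l on the other strand, was listed at 0 FPKM on d12 and d16, at 0.128 on d24 and at 0.0656 in the adult. No 50-base stretch of the longest Dnmt3l transcript occurs in a transcript of another gene.

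Within the libraries, the makeup of the DNMT genes changed with these values. Dnmt1 made up 64.3% of the summed FPKM of the 4 DNMT genes on d12, 77.7% on d24 and 72.5% in the adult. The share of Dnmt3a went from 23.1% on d12 to 8.58% in the adult and that of Dnmt3b from 12.2% to 7.78%. Dnmt3l went from 0.356% on d12 and 0.311% on d16 to 2.99% on d24 and 11.1% in the adult. The ratio of Dnmt3l to Dnmt3a was 0.0154 on d12 (0.00418 to 0.0394) and 0.0169 on d16, 0.259 on d24 (0.174 to 0.368) and 1.29 in the adult (0.887 to 1.83). It is a ratio of RNA values, which do not tell apart the curated Dnmt3l transcripts of 5 to 14 exons.

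**Figure D3:**
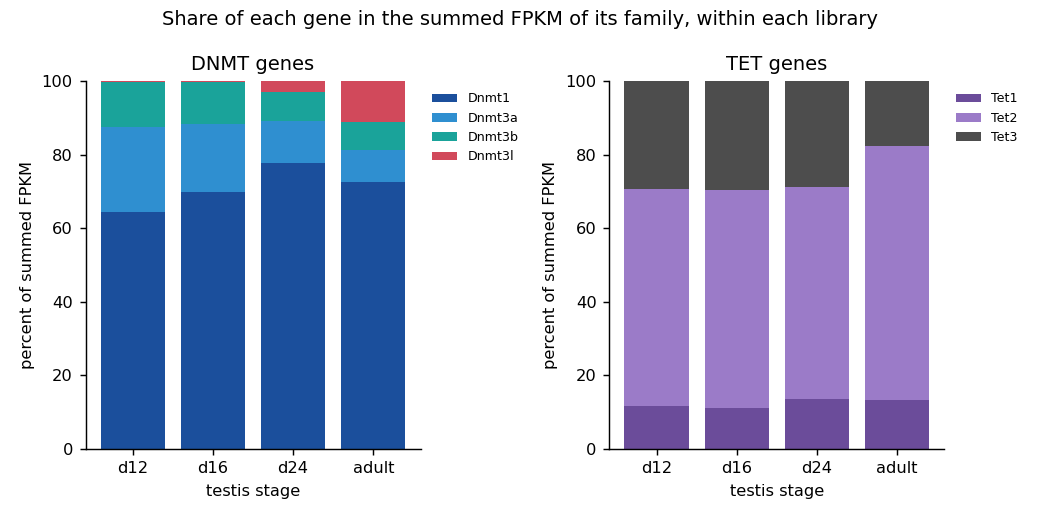
Share of each gene, in percent of the summed FPKM of its family (vertical axis, 0 to 100), in each library. Among the DNMT genes Dnmt3l reaches 11.1% in the adult from 0.356% on d12, and among the TET genes Tet3 goes from 29.3% on d12 to 17.6% in the adult.

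Tet2, on the minus strand of chromosome 3 (133463677 to 133545136), was the highest of the TET genes at every stage. It had 10.8 FPKM on d12 (1245 fragments, 10.2 to 11.5), 7.07 on d16 (6.59 to 7.57), 2.87 on d24 (2.64 to 3.11) and 1.98 in the adult (1.69 to 2.31). No 2 stages overlap, and the d12 value was 5.48 times the adult value (4.64 to 6.49).

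Tet3, on the minus strand of chromosome 6 (83362373 to 83457208), had 5.39 FPKM on d12 (736 fragments, 5.01 to 5.79) and 3.56 on d16 (3.25 to 3.89). On d24 it had 1.44 FPKM (1.29 to 1.60), and in the adult 0.504 (49 fragments, 0.373 to 0.666). Tet3 was the member that differed most between d12 and adult testis among the 6 that were lower, at 10.7-fold (8.01 to 14.6). From d24 to adult testis it was 2.86-fold lower (2.11 to 3.94), and 0.755% of all genes tested had a lower log2 change at this step.

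Tet1, on the minus strand of chromosome 10 (62804570 to 62887469), was the lowest TET gene at every stage. It had 2.14 FPKM on d12 (384 fragments, 1.93 to 2.36), 1.33 on d16 (1.17 to 1.51), 0.669 on d24 (0.582 to 0.766) and 0.382 in the adult (49 fragments, 0.283 to 0.506). No 2 stages overlap, and the d12 value was 5.59 times the adult value (4.14 to 7.67). In the adult the intervals of Tet1 and Tet3 overlap.

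Tet2 was 2.01 times Tet3 on d12 (1.83 to 2.2), 1.99 times on d16 (1.77 to 2.23) and 1.99 times on d24 (1.74 to 2.28), and 3.93 times in the adult (2.84 to 5.52). The adult interval lies apart from the 3 earlier ones. Tet1 was 0.397 times Tet3 on d12 (0.350 to 0.449), 0.374 times on d16 (0.319 to 0.438), 0.465 times on d24 (0.390 to 0.553) and 0.759 times in the adult (0.501 to 1.15), where the interval overlaps that of d24. The summed FPKM of the TET genes was 18.4 on d12, 12 on d16, 4.97 on d24 and 2.86 in the adult.

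By step, the counts of the 8 genes can be read against those of all 13901 genes tested. The steps share libraries with each other. From d12 to d16, none of the 8 was 2-fold lower (all genes 3.67%) and none 2-fold higher (all genes 12.6%), with a median log2 change of -0.53 over the 8 and of 0 over all genes. From d16 to d24, 4 were lower (Dnmt3a, Dnmt3b, Tet2 and Tet3, all genes 8.45%) and 1 was higher (Dnmt3l, all genes 27.5%), and the median was -0.98. Tet1 missed the limit at this step, with 1.99 times as much on d16 as on d24 (1.65 to 2.41). From d24 to adult testis, 1 was lower (Tet3, all genes 2.2%) and 1 higher (Dnmt3l, all genes 11.4%), with a median of -0.47. Over the whole span from d12 to adult testis, 6 were lower (all genes 23.1%) and 1 was higher (all genes 35.7%), and the median was -2.04. With an equal FPKM sum per library, the count over the whole span was again 6 lower and 1 higher, while 49.9% of all genes were lower and 23.2% higher. For d16 to d24 that scaling gave 30.2% lower and 19.4% higher, for d24 to adult testis 10.0% and 6.63%, and for d12 to d16 5.78% and 11.7%. With the upper quartile, 37.9% of all genes were lower and 27.8% higher over the whole span, 17.0% and 23.3% from d16 to d24, 4.13% and 8.71% from d24 to adult testis, and 5.70% and 11.5% from d12 to d16.

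The order of the 8 genes by FPKM, a value per length, changed in the course of the series. On d12 it was Dnmt1, Dnmt3a, Uhrf1, Tet2, Dnmt3b, Tet3, Tet1 and Dnmt3l, with the neighbours Dnmt3a and Uhrf1 and the neighbours Tet2 and Dnmt3b not separated by their intervals. In the adult it was Uhrf1, Dnmt1, Dnmt3l, Dnmt3a, Dnmt3b, Tet2, Tet3 and Tet1. There, neither Dnmt3l and Dnmt3a, nor Dnmt3a and Dnmt3b, nor Dnmt3b and Tet2, nor Tet3 and Tet1 were separated. Uhrf1 and Dnmt1 were separated from each other and from all others.

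Cell types of the testis moved over the same stages. Lists of 6 marker genes each were summed as deposited, without rescaling. Spermatogonial markers (Zbtb16, Gfra1, Kit, Dmrt1, Stra8 and Sohlh1) summed to 204.7 FPKM on d12, 121.8 on d16, 55.0 on d24 and 38.1 in the adult, which is 0.186 times the d12 sum. Of these 6, 5 were at least 2-fold lower in the adult than on d12 (all genes 23.1%). Gfra1 was higher, with 1.20 and 2.41 FPKM. Sertoli cell markers (Sox9, Wt1, Amh, Gata4, Cldn11 and Rhox5) summed to 180.6 FPKM on d12 and 63.0 in the adult, 0.349 times the d12 sum. Cldn11 was the highest of them, with 95.4 and 28.0 FPKM. Of these 6, 5 were at least 2-fold lower in the adult (all genes 23.1%), with Amh at 0 there. Rhox5 was not, with 20.3 and 16.7 FPKM. Over the same span Dnmt3a was at 0.155, Tet1 at 0.179, Tet2 at 0.183, Dnmt3b at 0.266, Dnmt1 at 0.471 and Tet3 at 0.0935 times the d12 value. The counting intervals of Dnmt3a (0.134 to 0.177) and Tet3 (0.0685 to 0.125) lay below both marker sums on this scale. Those of Tet1 (0.130 to 0.242) and Tet2 (0.154 to 0.215) lay below the Sertoli sum and hold the spermatogonial 0.186. Stra8 and Dmrt1 made up most of the spermatogonial sum on d12, with 86.4 and 77.4 FPKM. Single spermatogonial markers reached from 0.0585 times (Sohlh1) to 0.353 times (Kit) among the 5 that were lower.

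Markers of dividing cells (Mki67, Top2a, Mcm2, Mcm5, Rrm2 and Tyms) summed to 322.3 FPKM on d12 and 194.6 in the adult. There, 5 of 6 were at least 2-fold lower (all genes 23.1%). Top2a, which was not, made up most of the sum, with 169.6 and 143.6 FPKM. Pachytene spermatocyte markers summed to 59.8 FPKM on d12, 969.2 on d16, 4226 on d24 and 5111 in the adult. Round spermatid markers summed to 2.79, 13.9, 489.6 and 1459 FPKM, with Sun5 and Catsper1 at 0 on d12 and d16 and Acrv1 at 0 on d16. Elongating spermatid markers summed to 13.1, 4.33, 2325 and 26087 FPKM, with Gapdhs at 0 on d16. Dnmt3l was higher on d24 and in the adult, where these 3 sums were highest, and so was Uhrf1 as deposited, though with an equal sum its adult value lay under that of d12. Early spermatocyte markers summed to 832.3 FPKM on d12 and 1492 on d16, their highest sum. Sycp1 and Sycp3 made up most of it, with 536.0 and 795.3 FPKM on d16, and Meiob was also highest on d16. Dmc1 and Prdm9 were highest on d12, with 45.7 and 15.7 FPKM, and Stag3 in the adult, with 178.9. Leydig cell markers were at 5.35 times, endothelial markers at 0.468 times, peritubular myoid markers at 1.19 times and macrophage markers at 0.897 times their d12 sum in the adult. The Leydig sum rests mostly on Insl3 (17.5 and 272.8 FPKM) and Cyp17a1 (39.6 and 181.9), while Star alone was lower (18.8 and 15.1). Of the endothelial markers, Vwf was higher (0.515 and 1.37 FPKM) and the 5 others were lower. Mrc1 made up most of the macrophage sum, with 15.2 and 16.2 FPKM. The peritubular myoid sum rests on Actg2, which had 9.47 FPKM on d12 and 225.0 in the adult. Of the 6 markers of this list, 4 were at least 2-fold lower (all genes 23.1%), and Acta2 was at 0.303 times its d12 value. The part of cell composition in the values of the 8 genes was not tested.

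**Figure D4:**
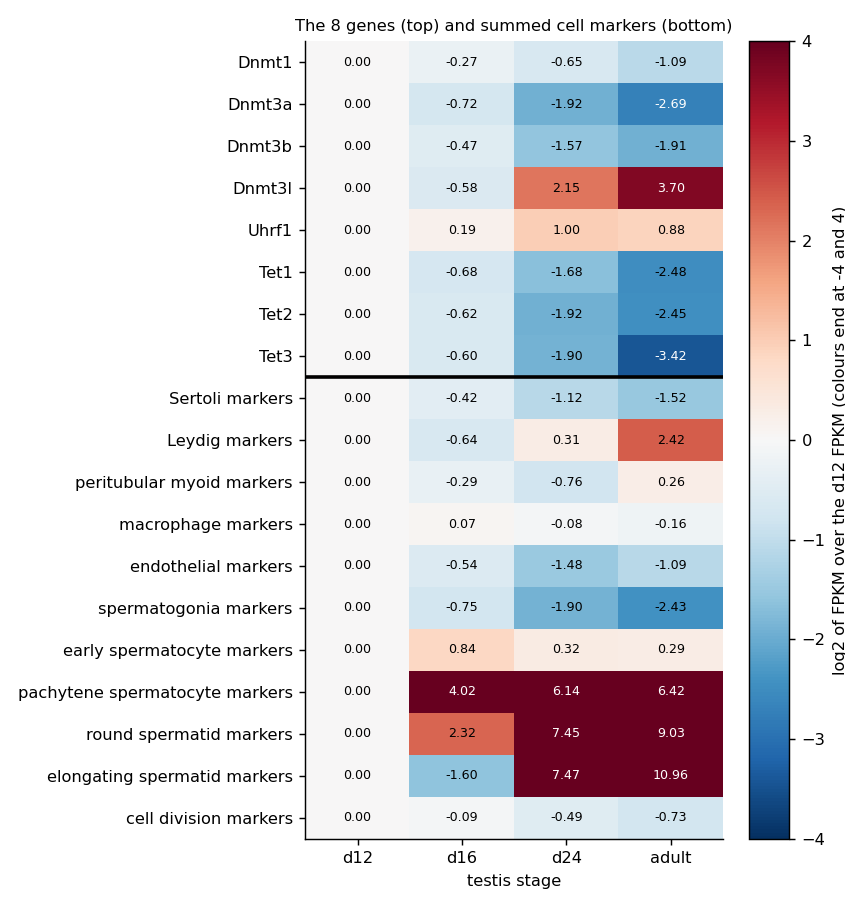
Log2 of the FPKM value over the d12 value for the 8 genes (above the line) and of the summed FPKM over the d12 sum for 11 marker lists (below it), by stage, with the value printed in each cell and blue for lower and red for higher. In the adult Dnmt3a, Tet1 and Tet2 (0.155, 0.179 and 0.183 times d12 before the log) lie close to the spermatogonial sum (0.186 times), and Dnmt3l is among the rows above 0.

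The partners of these enzymes were read from 5 lists with 62 genes, of which 60 are in the table, and counted where they averaged 1 FPKM or more. Their values are as deposited. An equal FPKM sum multiplies d12 values by 1.52 and adult values by 0.654, and an equal upper quartile by 1.25 and 0.793. Under both, the higher calls of Usp7, Dmap1, Mbd3 and Trim28 (2.26-fold as deposited) fall under the 2-fold limit. With an equal sum, those of Lig3 (4.41-fold as deposited), Xrcc1 (3.27-fold) and Cxxc5 (3.54-fold) fall under it too. More genes can pass the lower limit under these scalings. Counts of the lists under other scalings were not made. Of 10 maintenance partners, 3 were at least 2-fold lower (all genes 23.1%) and 2 higher (all genes 35.7%) in the adult than on d12. Their median log2 change was -0.30. Cdca7 and its partner Hells, a chromatin remodeller needed for normal DNA methylation, had 24.8 and 143.5 FPKM on d12 and 2.99 and 33.7 in the adult, which is 8.28-fold and 4.27-fold lower. Usp7, a deubiquitinase that binds DNMT1 and UHRF1, had 55.0 and 136.8 FPKM, 2.49-fold higher, and Dmap1, a DNMT1-binding protein, had 9.92 and 24.5, 2.47-fold higher.

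Of 9 de novo and germline partners, 3 were lower (all genes 23.1%) and 3 higher (all genes 35.7%), with a median of -0.16. Kdm1b, the histone demethylase required for maternal imprints in oocytes, had 11.3 FPKM on d12 and 2.77 in the adult. Nsd1, a histone H3K36 methyltransferase, had 45.5 and 18.4 FPKM. Mael, of the piRNA pathway, had 46.3 and 525.5 FPKM, and Zfp57, which protects imprints, had 2.91 and 17.8. Dppa3, which shields methylation from TET3 in the zygote, was under the mean of 1 FPKM and had 1.95 FPKM on d12 and none in the adult. Piwil4, the piRNA factor that guides new methylation before birth, had 0.484 FPKM on d12 and 0.0425 in the adult. Spocd1 and Dnmt3c are the 2 listed genes without a row.

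Of 14 genes of demethylation and base excision, 5 were lower (all genes 23.1%) and 4 higher (all genes 35.7%), with a median of -0.53. Tdg, the glycosylase that removes oxidised products of the TET enzymes, had 14.8 FPKM on d12 and 2.50 in the adult, 5.94-fold lower. Gadd45a had 10.7 and 1.47 FPKM. Polb, the gap-filling polymerase, had 15.7 and 215.1 FPKM, 13.7-fold higher, and the ligase gene Lig3 had 14.1 and 62.3.

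Of 10 genes of methyl-CpG readers and their relatives, 3 were lower (all genes 23.1%) and 2 higher (all genes 35.7%), with a median of -0.07. The list goes by gene family and is not limited to proteins that bind methylated CpG. Zbtb33, which encodes Kaiso, had 6.48 and 1.18 FPKM. Mbd3 had 19.4 and 46.8 FPKM. Mbd3l1, a testis gene related to Mbd3, was listed at 0 on d12 and d16 and had 27.9 FPKM on d24 and 107.9 in the adult. Of 8 genes that supply S-adenosylmethionine, the methyl donor, 3 were lower (all genes 23.1%) and none higher (all genes 35.7%). Their median was -0.75. Mat2b, the regulatory subunit of the synthetase, had 24.7 and 8.10 FPKM and Ahcy, which clears the by-product of methylation, 17.1 and 7.99. Ahcyl2, with 12 and 23.8 FPKM, lay within the 2-fold limit. Trdmt1, also called Dnmt2, which methylates tRNA, had 4.06 FPKM on d12, 5.70 on d16, 2.95 on d24 and 3.02 in the adult.

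**Figure D5:**
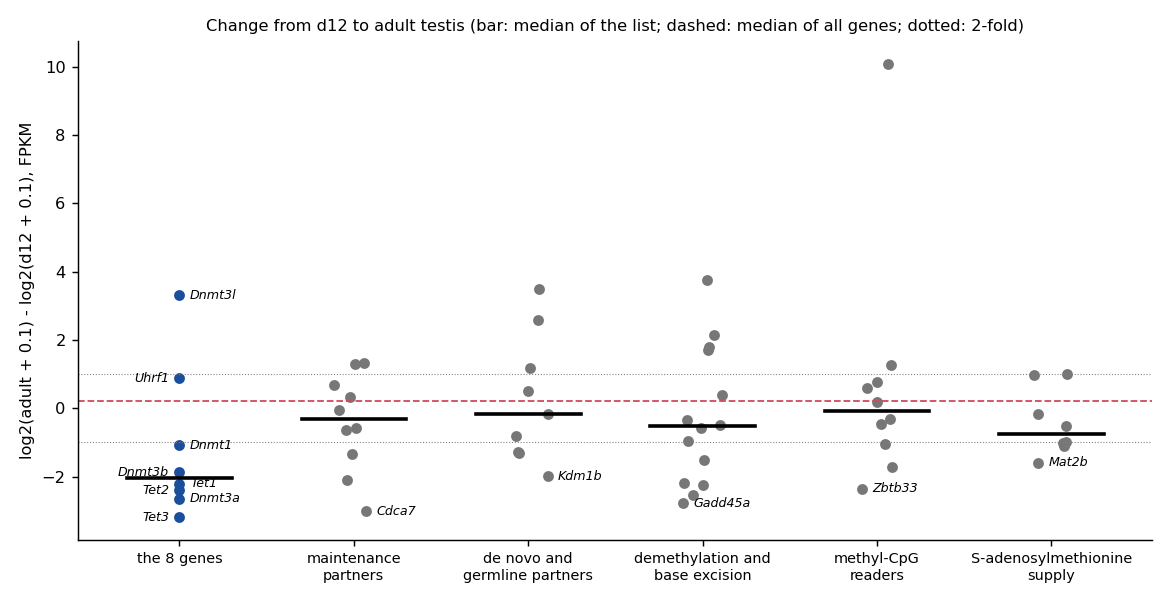
Log2(adult FPKM + 0.1) minus log2(d12 FPKM + 0.1) (vertical axis) for the 8 genes and for 5 lists of partner genes averaging 1 FPKM or more, with 1 point per gene, a bar at the median of each list and a dashed line at the median of all genes (0.20). The 8 genes have the lowest median, -2.04, and the medians of the lists lie between -0.75 and -0.07.

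The profile of each gene over the 4 libraries was compared with those of all genes tested, by the Euclidean distance between log2(FPKM + 0.1) values centred on their mean. Dnmt3a and Tet2 were the nearest pair among the 8, at a distance of 0.20. Dnmt3b and Tet1 followed at 0.28, and Dnmt3l was the farthest from each of the 6 genes that were lower. The genes nearest to Dnmt1 were Gnb2l1 (0.03) and Ppfia1 (0.05), those to Dnmt3a were Itga6 (0.07) and Ramp2 (0.08), and those to Dnmt3b were Sp4 (0.03) and Hist1h2ai (0.03). Nearest to Uhrf1 were Sec22a (0.02) and Gpr107 (0.05) and to Dnmt3l Msr1 (0.17) and Rp2h (0.18). For Tet1 these were Sh3d19 (0.05) and Apool (0.06), for Tet2 BC021891 (0.03) and Pygo1 (0.06), and for Tet3 Adamts10 (0.07) and Pramef12 (0.09). With 4 libraries many genes are close: 2464 others lie within 0.5 of Dnmt1, 1513 of Dnmt3b, 1055 of Tet1, 474 of Dnmt3a and 51 of Dnmt3l. Nearer to Dnmt3a than Tet2 were 52 genes, and nearer to Tet2 than Dnmt3a were 78. For Dnmt3b and Tet1 these numbers were 502 and 297, so the closeness is not particular to the pairs.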

How the data were processed

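Total RNA of 4 testis stages was sequenced as strand-specific, paired-end libraries, 1 per stage. Read pairs were mapped by the authors with TopHat2 2.1.0, which ran on Bowtie 1.1.2, to the mouse build GRCm38, guided by RefSeq genes and with 1 alignment kept for each pair. They computed FPKM values with Cuffdiff of Cufflinks 2.2.1, using multi-read and bias correction and no effective length correction, and deposited them as 1 table. The scaling inside Cuffdiff is not given in the sources used here. Median ratio factors of 0.984 to 0.993 show that the deposited libraries were already nearly equal by that measure. Their FPKM sums were not equal.

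From the deposited FPKM values, ratios between stages, ratios between genes within a library and counts of genes past 2-fold were computed (scipy 1.17.1, pandas 2.3.3 and numpy 2.4.6 under python 3.11.15). A pseudocount of 0.1 FPKM was added on the log2 scale, and all genes averaging 1 FPKM or more formed the background. The value of 1 fragment was recovered from genes with 1 curated transcript in the GRCm38.p6 annotation of RefSeq, which is on the authors' build, and was 0.0799 FPKM at 1 kb on d12, 0.0800 on d16, 0.0455 on d24 and 0.112 in the adult. Of the values up to 20 fragments, 91.8% to 92.4% lay within 0.05 of a whole number. Transcript lengths of the authors' RefSeq version may differ. Intervals of values are exact Poisson intervals and those of ratios exact Clopper-Pearson intervals. The limit for low values is that of 3 fragments. Promoter windows are from RefSeq, where all 8 genes matched by symbol, and shared 50-base stretches were counted in GENCODE M21 transcripts. The calculations were tested on simulated data.

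No test across stages was possible with 1 library each. The genes, the lists and the rules were chosen with earlier results of these data known. Named are the 8 genes, from each partner list the 2 highest and 2 lowest by log2 change from d12 to adult testis among genes averaging 1 FPKM or more, Dnmt3c and Trdmt1, marker genes, and the 2 nearest profiles of each gene. Dnmt3aos, Aire, Dppa3, Piwil4, Spocd1, Trim28, Cxxc5, Gm5648 and Gm15953, and the genes of the closing observations, were named after their values or positions were seen. Some genes that this rule names are not reported here. Alternatives were 3 other scalings, a pseudocount of 1 FPKM, thresholds of 1.5-fold and 3-fold, the whole counting interval past the threshold, no filter on low values and the longest transcript behind the intervals.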

Additional observations from a re-analysis of the deposited data

How the results depend on the processing

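No paired analysis was possible because each stage has 1 library. Of 56 alternative counts of the 8 genes past the threshold, 43 stayed within 1.5 times the reported count. These 43 include counts of 0 that stayed at 0 from d12 to d16. They also include every count by the median ratio, which hardly changes the values. With a pseudocount of 1 FPKM, 2 genes in place of 4 were lower from d16 to d24 (all genes 4.09%), 0 in place of 1 was higher at that step (24.9%) and 0 in place of 1 was lower from d24 to adult testis (0.417%). With a threshold of 1.5-fold, 4 genes were lower from d12 to d16 (13.4%), where none passed 2-fold, 2 were higher from d16 to d24 (36.5%), 3 were lower from d24 to adult testis (8.72%) and 2 were higher from d12 to adult testis (42.5%). With 3-fold, 0 were lower from d16 to d24 (1.30%), and from d24 to adult testis 0 were lower (0.482%) and 0 higher (5.72%). With the whole counting interval past 2-fold, the calls of Dnmt3l were lost from d16 to d24 and from d24 to adult testis, which left 0 higher at each. The call of Dnmt3b was lost from d16 to d24, which left 3 lower, and that of Dnmt1 from d12 to adult testis, which left 5 lower. With an equal FPKM sum per library, 3 genes were lower from d24 to adult testis. Of 128 folds under other scalings or pseudocounts, 72 stayed within the counting interval and 56 moved outside it. The 72 include all 32 folds by the median ratio, which could hardly differ. Of 32 folds, 31 kept their direction under all 4 scalings, and the exception is Uhrf1 from d12 to adult testis. Of 56 alternative shares of all genes, 26 moved by more than 1.5 times. Depth limits Dnmt3l most, with 3 to 7 fragments on d12 and d16.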

Other observations

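Single genes of base excision repair, picked out after their values were seen, had different courses. The glycosylase genes Tdg and Ung had 14.8 and 11.9 FPKM on d12, 8.93 and 5.94 on d16, 4.18 and 2.91 on d24, and 2.50 and 2.41 in the adult. Smug1 had 1.17 FPKM on d12, 1.11 on d16, 1.22 on d24 and 0.559 in the adult, which is 2.19-fold lower than on d24. Neil1 and Neil2, listed at 0.546 and 0.542 FPKM on d12, were at 0 and 0.0586 in the adult. Mbd4, a further glycosylase gene, did not share this course, with 7.15 FPKM on d12, 5.83 on d16, 4.93 on d24 and 9.36 in the adult. Polb had 15.7 FPKM on d12, 40.1 on d16, 125.6 on d24 and 215.1 in the adult. Xrcc1, the scaffold of the repair complex, had 12.7, 16.4, 46.9 and 41.6 FPKM, and Lig3 had 14.1, 23.3, 55.3 and 62.3. Lig1, a further ligase gene, had 29.9, 24.1, 15.6 and 11.8 FPKM, and Parp1, which senses strand breaks, had 61.6, 60.6, 55.2 and 43.9. Apex1, the endonuclease that acts after the glycosylases, stayed between 13 and 16.9 FPKM at all 4 stages. The cell types behind these values were not tested.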
